A study of Homo sapiens with 6 samples.

Results

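Immediate early genes are switched on within minutes of a stimulus, from proteins already present in the cell, and their transcripts are usually short lived. Most encode transcription factors that act on later genes. The genes described here are ARC, the 4 EGR genes, the 3 NR4A genes, IER2 and IER5, 10 of the 39168 Ensembl identifiers in the deposited count table. They were picked by name as early response genes with earlier results of these data known. Their adjusted p are therefore not those of a set chosen in advance. ARC was picked as the largest increase with erianin, so its own change is given as a description without a test.

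The libraries came from CAL62 cells, an established human anaplastic thyroid carcinoma line labelled as wild type. In 3 libraries the cells had received erianin at 50 nM, and in the 3 control libraries only the solvent DMSO, in both cases for 48 h. Erianin is a plant-derived bibenzyl compound that acts on tubulin. A time point of 48 h lies far beyond the first wave of an immediate early response, so these libraries measure how much transcript was present late in the treatment, not the induction itself. The design text speaks of 3 replicate experiments, and nothing states that the libraries came from separate cultures, so the p-values measure the spread between these libraries, which may be technical.

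Between 25776301 and 34107727 reads were counted on named genes per library. Normalised read counts are given as CPM, read counts scaled to library size by TMM, and they compare 1 gene between libraries. DMSO replicate 3 stood apart from the other control libraries. The chi-square per gene, which is near 1 for sampling noise alone, was 4.35 between DMSO replicates 1 and 2 and between 3.80 and 4.80 among the erianin libraries, but 90.6 and 104 between DMSO replicate 3 and DMSO replicates 1 and 2. Over the tested genes edgeR put the biological coefficient of variation at 0.139, and at 0.0421 once DMSO replicate 3 was dropped. No library was dropped from the comparison, and results are also given without DMSO replicate 3.

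Differential expression was tested with edgeR's quasi-likelihood test over 12821 genes. A gene was called at a Benjamini-Hochberg adjusted p under 0.05 with an absolute log2 fold change over 0.5. By this rule 5.37% of all tested genes were called higher with erianin and 3.36% were called lower, 8.73% in either direction. This split was 688 higher and 431 lower, and it moved with the scaling, to 822 and 299 with upper-quartile factors, 639 and 719 with each library's trend on GC content removed, and 1098 and 94 in limma on log2(TPM + 1), where the median log2 fold change of all genes was 0.18. All 10 early response genes passed the filter on low counts. Of the 9 genes other than ARC, the 3 NR4A genes were called higher, none was called lower, and the 4 EGR genes, IER2 and IER5 were not called. At an unadjusted p under 0.05, 4 of these 9 were higher and 2 were lower, against 15.3% and 15.6% of all tested genes. Neither DESeq2 nor limma on TPM called any of the 9 lower, but limma on TPM called only 88 to 110 of all genes lower.

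**Figure D1:**
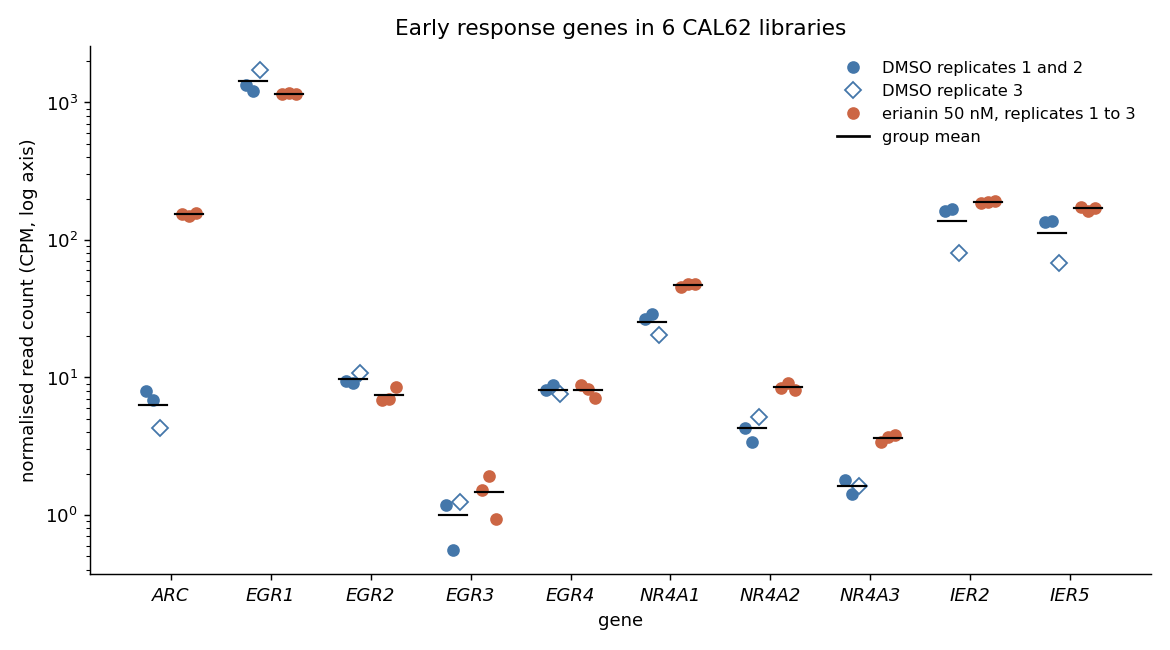
Normalised read counts (CPM, log axis) of the 10 early response genes in each of the 6 libraries, with DMSO in blue, erianin in orange, DMSO replicate 3 as an open diamond and group means as black lines. ARC stands at 4.27 to 7.96 CPM with DMSO and at 150 to 156 CPM with erianin, the NR4A genes are higher in every erianin library than in any DMSO library, and EGR3 and EGR4 overlap between the groups.

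The promoters of such genes are known for the CArG box, which is bound by serum response factor, and for the cyclic AMP response element, which is bound by CREB proteins. RefSeq promoter windows on GRCh38.p14, each with 250 bases before a transcript start and 300 bases in all, matched 7 of the 10 genes in 10 windows. ARC, EGR3 and NR4A2 had no window. The letters TGACGTCA, the full cyclic AMP response element, and AAAGGTCA, the site of an NR4A monomer, were in none of these windows, and they were in 1.85% and 1.22% of all 35116 windows. The core TGACG was searched on both strands, so it also reads CGTCA, and it was in 24.6% of all windows. CArG boxes were in 1.29% of all windows, and GCGNGGGCG, the letters of an EGR site, in 9.43%. The full element contains the core, and no other motif searched here contains another.

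The stretches printed here run from 150 to 31 bases before the start. They are shown because they hold the early response motifs of a gene that was called, NR4A3, and of 2 that were not, EGR1 and EGR2. Capitals mark CArG boxes and TGACG or CGTCA. None of the 3 stretches overlaps an exon in GENCODE release 29. The EGR1 stretch is chr5:138465329-138465448 on the plus strand, the NR4A3 stretch is chr9:99821735-99821854 on the plus strand, and the EGR2 stretch is chr10:62816397-62816516 on the minus strand, inside the span of the EGR2 gene.
EGR1: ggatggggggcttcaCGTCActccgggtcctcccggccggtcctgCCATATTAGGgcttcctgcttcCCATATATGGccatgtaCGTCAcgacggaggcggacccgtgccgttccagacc
EGR2: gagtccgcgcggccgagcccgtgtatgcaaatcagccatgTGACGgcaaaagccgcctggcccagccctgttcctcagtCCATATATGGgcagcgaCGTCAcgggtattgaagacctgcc
NR4A3: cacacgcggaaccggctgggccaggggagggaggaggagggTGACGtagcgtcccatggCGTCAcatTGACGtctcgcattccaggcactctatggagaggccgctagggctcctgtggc

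EGR1 had 2 CArG boxes, with first bases 105 and 83 bases before the start, and cores at 135 and 66 bases. EGR2 had 1 CArG box at 71 bases before the start, with a core on either side of it at 110 and 54 bases. No other window of the 7 genes held a CArG box. The NR4A3 window held 4 cores, at 109, 91, 83 and 25 bases before the start, of which the first 3 lie in the printed stretch. EGR4 had cores at 177 and 109 bases, and IER2 had 1 core at 140 bases. An EGR site lay 198 bases before the start of EGR1, and another lay in 1 EGR2 window at a different start from the stretch printed. The windows of NR4A1 and IER5 held none of the letters searched. A match is a description of the sequence, and binding was not measured.

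ARC encodes the activity-regulated cytoskeleton-associated protein, which descends from a retrotransposon Gag protein, forms capsid-like particles and acts at the synapses of neurons. The gene (ENSG00000198576) lies on chromosome 8 from 142611044 to 142614472 on the minus strand, in GENCODE release 29 on GRCh38, from which all gene positions here are taken. ARC had 7.96, 6.84 and 4.27 CPM in DMSO replicates 1, 2 and 3. It had 155, 150 and 156 CPM in erianin replicates 1, 2 and 3. The erianin libraries were nearly equal and the DMSO libraries were low, with DMSO replicate 3 the lowest. The reads behind these values ranged from 133 in DMSO replicate 3 to 5461 in erianin replicate 3.

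The mean of ARC was 6.36 ± 1.89 CPM with DMSO and 154 ± 3.25 CPM with erianin (SD, n = 3 each). That is a log2 fold change of 4.60 with a standard error of 0.21 and a 95% interval from 4.11 to 5.10, or 24.3-fold. The lowest erianin library was 18.8 times the highest DMSO library. Leaving out DMSO replicate 3 gave 4.38. Among genes averaging at least 1 CPM the next largest increase was that of MMP10, a matrix metalloproteinase, with a log2 fold change of 3.09 on 1.98 CPM with erianin. Without a floor on the level, ARC ranked 7 among the 12821 tested genes. In bulk libraries a change in the share of cells that carry a transcript and a change in the amount per cell cannot be told apart.

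The NR4A genes encode orphan nuclear receptors that bind DNA without a known endogenous ligand, and they are early response genes in many tissues. NR4A1, also known as Nur77, lies on chromosome 12 from 52022832 to 52059507 on the plus strand (ENSG00000123358). It had 26.6, 28.9 and 20.5 CPM with DMSO and 45.8, 47.6 and 48.2 CPM with erianin, from 639 to 1688 reads. The groups did not overlap, and DMSO replicate 3 was again the lowest. NR4A1 rose from 25.4 ± 4.35 to 47.2 ± 1.26 CPM (SD, n = 3 each). Its log2 fold change was 0.90 with a standard error of 0.13, a 95% interval from 0.59 to 1.21 and an adjusted p of 0.00719 from edgeR. That is 1.86-fold. An annotated lincRNA, AC025259.3, overlaps its exons on the opposite strand and had 0 counts in all 6 libraries.

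NR4A2, also known as Nurr1 and required for midbrain dopamine neurons, lies on chromosome 2 from 156324432 to 156342348 on the minus strand (ENSG00000153234). It had 4.31, 3.39 and 5.17 CPM with DMSO and 8.37, 9.05 and 8.05 CPM with erianin. For this gene DMSO replicate 3 was the highest control, and every erianin library still stood above it. NR4A2 rose from 4.29 ± 0.890 to 8.49 ± 0.507 CPM (SD, n = 3 each), or 1.98-fold. The log2 fold change was 0.99 with a standard error of 0.17, a 95% interval from 0.59 to 1.39 and an adjusted p of 0.0119 from edgeR.

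NR4A3, also known as NOR1, lies on chromosome 9 from 99821855 to 99866891 on the plus strand (ENSG00000119508). It was the scarcest of the family, at 1.81, 1.42 and 1.64 CPM with DMSO and 3.40, 3.66 and 3.83 CPM with erianin. Its reads numbered between 44 and 134 per library. NR4A3 rose from 1.62 ± 0.195 to 3.63 ± 0.217 CPM (SD, n = 3 each), or 2.25-fold. The log2 fold change was 1.17 with a standard error of 0.17, a 95% interval from 0.78 to 1.56 and an adjusted p of 0.00664 from edgeR.

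The 95% intervals of the 3 NR4A changes overlapped, and differences among them were not tested. Summed over the family, the NR4A genes had 27.3 to 33.7 CPM with DMSO and 57.6 to 60.3 CPM with erianin. NR4A1 made up 75.1% to 85.8% of this sum in the DMSO libraries and 78.9% to 80.2% in the erianin libraries. Leaving out DMSO replicate 3 gave log2 fold changes of 0.76 for NR4A1, 1.15 for NR4A2 and 1.18 for NR4A3, with edgeR adjusted p of 2.8e-11, 3.73e-08 and 1.98e-05. In that fit 11.4% of all tested genes were called higher. Calls were lost when an erianin library was left out, all 3 of them without erianin replicate 3. The edgeR adjusted p of NR4A1 was 0.0518 without erianin replicate 2 and 0.0523 without erianin replicate 3, that of NR4A2 was 0.0649, 0.0709 and 0.0582 without erianin replicates 1, 2 and 3, and that of NR4A3 was 0.0517 without erianin replicate 3. In these fits with 2 erianin libraries, which assume that both groups share 1 spread, 172 to 184 of all genes were called higher against 688 with all 6 libraries.

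**Figure D2:**
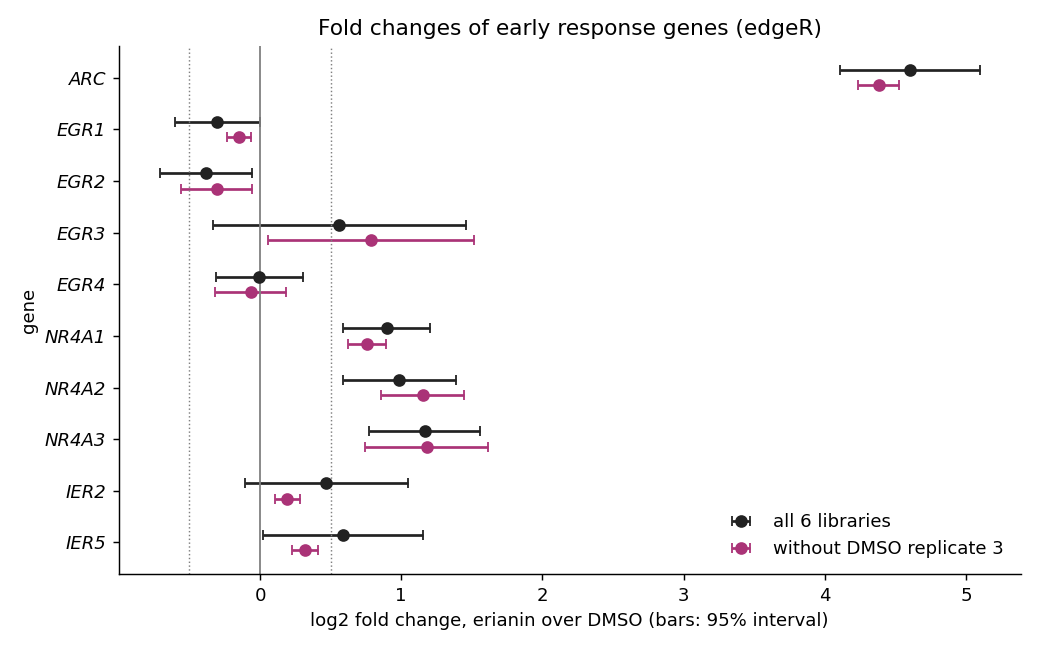
Log2 fold changes of the 10 genes, erianin over DMSO, with 95% intervals from edgeR, for all 6 libraries in black and without DMSO replicate 3 in purple, and dotted lines at the fold threshold of 0.5. The NR4A intervals lie above 0.5 in both fits, ARC lies at 4.60 and 4.38, and the intervals of IER2 and IER5 are narrow and below 0.5 only without DMSO replicate 3.

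The EGR genes encode zinc finger transcription factors that bind the same GC-rich site. EGR1 lies on chromosome 5 from 138465490 to 138469315 on the plus strand (ENSG00000120738), and it is a classical readout of ERK signalling. It was by far the most abundant of the 10 genes, with 98.5% to 98.9% of the summed EGR CPM in every library. EGR1 had 1340, 1205 and 1723 CPM with DMSO and 1145, 1166 and 1146 CPM with erianin. The highest value was that of DMSO replicate 3. Every erianin library lay below every DMSO library in CPM, but in TPM the groups overlapped, with 2335 to 3044 for DMSO and 2459 to 2501 for erianin.

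The mean of EGR1 was 1423 ± 269 CPM with DMSO and 1152 ± 11.6 CPM with erianin (SD, n = 3 each). Its log2 fold change was -0.30 with a standard error of 0.13 and an edgeR adjusted p of 0.158, and it was not called. When DMSO replicate 3 was left out the log2 fold change was -0.15, with an edgeR adjusted p of 0.00332, where 55.2% of all tested genes had an adjusted p under 0.05. This difference stayed below the fold threshold. In limma on log2(TPM + 1) the difference was -0.09, beside the median of 0.18 over all genes.

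EGR2, which controls myelination by Schwann cells, lies on chromosome 10 from 62811996 to 62919900 on the minus strand (ENSG00000122877). It had 9.36, 9.09 and 10.8 CPM with DMSO and 6.88, 6.98 and 8.57 CPM with erianin. The groups did not overlap, but erianin replicate 3 lay close to the DMSO libraries. The means were 9.76 ± 0.931 and 7.48 ± 0.944 CPM (SD, n = 3 each). Its log2 fold change was -0.38 with a standard error of 0.14 and an edgeR adjusted p of 0.108. It was -0.31 without DMSO replicate 3, with an edgeR adjusted p of 0.0357.

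EGR3 and EGR4 overlapped between the groups, and EGR3 was measured on few reads. EGR3, which is needed for muscle spindle development, lies on chromosome 8 from 22687659 to 22693302 on the minus strand (ENSG00000179388). It had 1.19, 0.555 and 1.25 CPM with DMSO and 1.52, 1.92 and 0.942 CPM with erianin. These values rest on 18 to 67 reads, and the exact Poisson 95% interval, which covers counting error only, runs from 10.7 to 28.4 reads for the lowest library and from 51.9 to 85.1 for the highest. The log2 fold change was 0.56 with a 95% interval from -0.34 to 1.46 and an edgeR adjusted p of 0.369, and no change of EGR3 was detected at this depth and spread. It was 0.79 without DMSO replicate 3, with an edgeR adjusted p of 0.0618. A noncoding transcript, AC055854.1, overlaps its exons on the opposite strand.

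EGR4 lies on chromosome 2 from 73290929 to 73293705 on the minus strand (ENSG00000135625). It had 8.09, 8.75 and 7.55 CPM with DMSO and 8.87, 8.30 and 7.11 CPM with erianin. The values of the groups were intermingled. Its log2 fold change was -0.01 with a 95% interval from -0.31 to 0.30 and an edgeR adjusted p of 0.983, and this sign turned under 8 of 17 alternative settings. The whole interval lies within the threshold of 0.5 in either direction.

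IER2 and IER5 encode nuclear proteins that lack a known DNA-binding domain, and IER5 takes part in the regulation of heat shock factor HSF1. IER2 lies on chromosome 19 from 13150415 to 13154908 on the plus strand (ENSG00000160888). It had 162, 168 and 80.4 CPM with DMSO and 186, 190 and 193 CPM with erianin. IER5 lies on chromosome 1 from 181088712 to 181092899 on the plus strand (ENSG00000162783). It had 134, 137 and 67.5 CPM with DMSO and 175, 163 and 171 CPM with erianin. Both genes were higher in every erianin library than in any DMSO library, and in both DMSO replicate 3 stood far below the other controls. An antisense transcript, AC011446.2, overlaps the exons of IER2.

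The mean of IER2 was 137 ± 48.9 CPM with DMSO and 189 ± 3.65 CPM with erianin, and that of IER5 was 113 ± 39.2 and 169 ± 5.75 CPM (SD, n = 3 each). The log2 fold change of IER2 was 0.47 with a standard error of 0.25 and an edgeR adjusted p of 0.245. The log2 fold change of IER5 was 0.59 with a standard error of 0.24 and an edgeR adjusted p of 0.147. Neither gene was called. Without DMSO replicate 3 the log2 fold changes were 0.19 for IER2 and 0.32 for IER5, each with a standard error of 0.04, and the edgeR adjusted p were 0.000237 and 2.66e-07. In that fit 55.2% of all tested genes had an edgeR adjusted p under 0.05. DMSO replicate 3 thus moved both the size and the error of these changes. Without it both changes lay below the fold threshold of 0.5, which IER5 had exceeded with all 6 libraries.

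DMSO replicate 3 departed from the mean of DMSO replicates 1 and 2 in both directions among the 10 genes. On the log2 scale it lay at -1.04 for IER2, -1.004 for IER5, -0.79 for ARC and -0.44 for NR4A1, below the other controls. It lay at 0.52 for EGR3, 0.44 for EGR1, 0.43 for NR4A2 and 0.23 for EGR2, above them. NR4A3 at 0.02 and EGR4 at -0.16 departed least. The middle 90% of all tested genes lay between -0.87 and 0.79, so only IER2 and IER5 among the 10 fell outside this range.

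**Figure D3:**
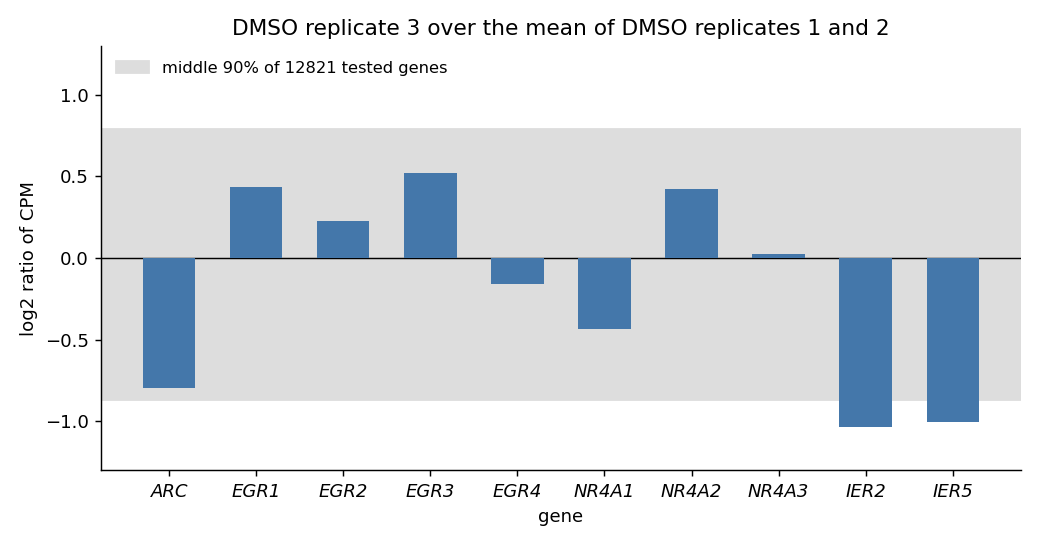
Log2 ratio of CPM in DMSO replicate 3 over the mean of DMSO replicates 1 and 2 for each of the 10 genes (bars), with the middle 90% of the 12821 tested genes as a grey band. IER2 and IER5, at -1.04 and -1.004, fall below the band, and the other genes lie within it.

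Of the 9 genes other than ARC, 7 had no overlap in CPM between the groups, which was the case for 38.7% of all tested genes. The median log2 fold change of these 9 was 0.56, against 0.00 over all tested genes. This median is the value of EGR3, which overlapped between the groups and rests on 18 to 67 reads. Without DMSO replicate 3 the medians were 0.32, the value of IER5, and 0.02 over all tested genes.

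To compare levels between genes, a value per length is needed. The deposited TPM values are scaled by gene length, and by TPM the order with DMSO was EGR1, IER5, IER2, ARC, EGR4, EGR2, NR4A1, NR4A2, EGR3 and NR4A3. With erianin the order was EGR1, ARC, IER5, IER2, EGR4, NR4A1, EGR2, NR4A2, NR4A3 and EGR3. ARC had 7.06 to 14.3 TPM with DMSO, overlapping EGR4 at 8.81 to 11.2 TPM. With erianin ARC had 297 to 318 TPM, above IER5 at 259 to 281 TPM and below EGR1 at 2459 to 2501 TPM. With DMSO the neighbours IER5 and IER2, ARC and EGR4, EGR2 and NR4A1, and EGR3 and NR4A3 overlapped, and with erianin NR4A3 and EGR3 alone did.

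The gene lengths behind these TPM values do not match the annotation for most of the 10 genes. Relative to EGR1, the length in the TPM values exceeded that of the longest GENCODE transcript 6.69 times for NR4A1, 5.49 times for NR4A2, 3.70 times for EGR2, 2.99 times for NR4A3, 2.15 times for IER2, 2.10 times for EGR3 and 1.998 times for EGR4. It exceeded it 1.14 times for ARC and was equal for IER5. Their TPM values are lowered accordingly. Levels were therefore also computed as CPM per kilobase of the longest transcript. On that scale the order with DMSO was EGR1, IER2, IER5, NR4A1, EGR4, EGR2, ARC, NR4A2, NR4A3 and EGR3, and with erianin ARC moved to the third place. The neighbours IER2 and IER5, EGR4 and EGR2, ARC and NR4A2, and NR4A3 and EGR3 overlapped with DMSO on this scale, and EGR2 and NR4A2 alone did with erianin. EGR1 had 367 CPM per kilobase with erianin, IER2 had 64.6, ARC had 52.1, IER5 had 40.5 and NR4A1 had 9.76. With DMSO ARC overlapped EGR4 on the TPM scale and NR4A2 on this scale, and with erianin it lay between EGR1 and IER5 on the TPM scale and between IER2 and IER5 on this scale.

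The 10 genes were set beside 44 other immediate early genes, of which 41 were tested. Of these, 16 were called higher, 1 was called lower and 24 were not called. Of all tested genes 5.37% were called higher and 3.36% lower. At an unadjusted p under 0.05, 26 of the 41 were higher and 3 were lower, against 15.3% and 15.6% of all tested genes. The median log2 fold change of the 41 was 0.38, against 0.00 over all tested genes. The largest increase of the list was that of ATF3, a stress-induced partner of JUN proteins, from 11.6 ± 2.17 to 40.6 ± 1.69 CPM (SD, n = 3 each). Its log2 fold change was 1.82 with an edgeR adjusted p of 0.00105. RHOB, a small GTPase of the actin cytoskeleton, had a log2 fold change of 1.51 (edgeR adjusted p = 0.00256), and GEM, a GTPase that inhibits calcium channels, had 1.23 (edgeR adjusted p = 0.00102). DUSP1, a phosphatase of MAP kinases, was also called higher, with a log2 fold change of 1.55 that lies between those of ATF3 and RHOB (edgeR adjusted p = 0.000696). KLF2, a Krueppel-like transcription factor, was called lower, from 57.9 ± 5.13 to 39.0 ± 3.04 CPM (SD, n = 3 each) with a log2 fold change of -0.57 (edgeR adjusted p = 0.0127). This call was lost when any erianin library was left out and in the limma fits on TPM. Those limma fits called only 88 to 110 of all genes lower.

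No other gene of this list reached a change near that of ARC, and only ATF3, DUSP1, RHOB and GEM were called with a log2 fold change above that of NR4A3. The FOS and JUN genes, which form the AP-1 transcription factor, varied among themselves. FOSB was called higher with a log2 fold change of 0.63 (edgeR adjusted p = 0.00664). FOS at 0.17 and JUN at 0.23 were not called, with edgeR adjusted p of 0.2 and 0.0976. FOSL1, the most abundant gene of the list that was not called, had 1325 ± 245 CPM with DMSO and 1144 ± 24.4 CPM with erianin (SD, n = 3 each) and a log2 fold change of -0.21 (edgeR adjusted p = 0.303). FOS, FOSB and JUN are named here after their values were seen. Leaving out erianin replicates 1, 2 and 3 reduced the 16 genes called higher to 7, 5 and 8, and leaving out DMSO replicate 3 gave 18. In the same fits 184, 172, 183 and 1485 of all tested genes were called higher, against 688 with all 6 libraries. CCN1, CCN2 and NPAS4 were listed at 0 in all 6 libraries and were not tested.

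**Figure D4:**
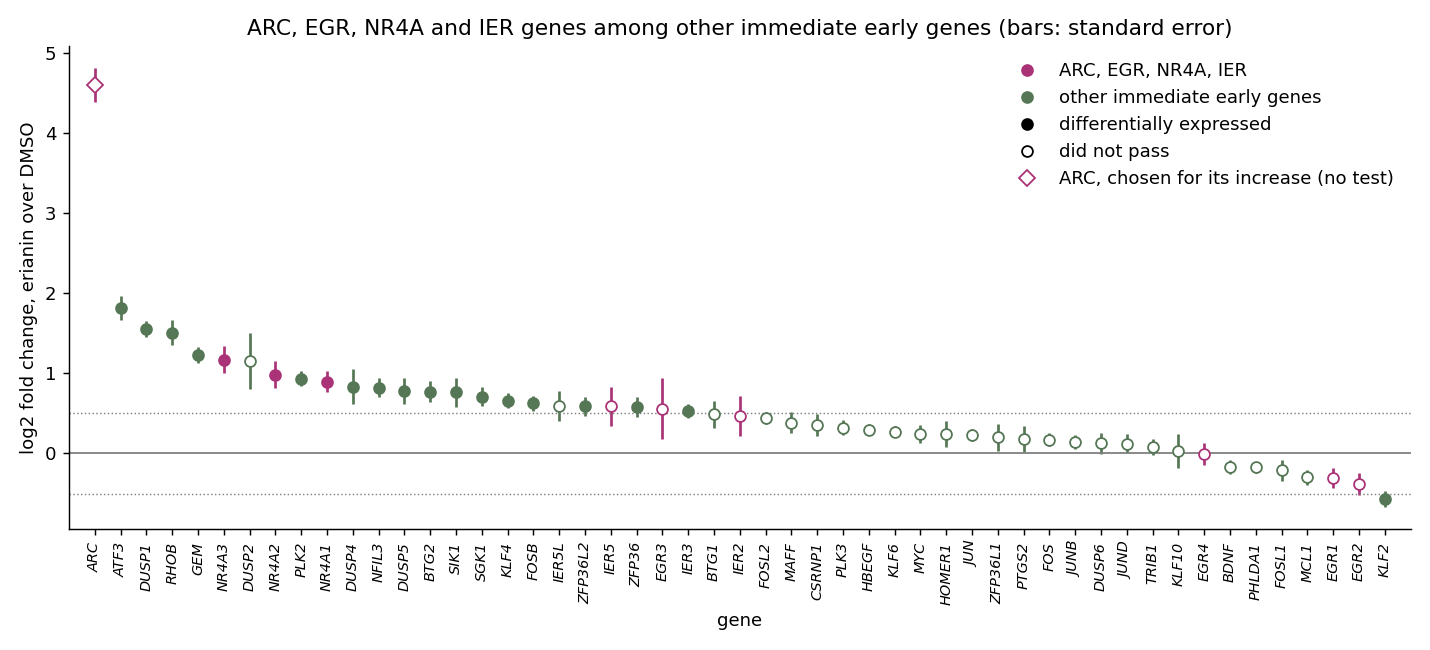
Log2 fold changes, erianin over DMSO, of the 10 genes (purple) and the 41 tested other immediate early genes (green), with standard errors from edgeR, filled where differentially expressed, dotted lines at the fold threshold and ARC as a diamond without a test. ARC stands alone at 4.60, the NR4A genes lie between 0.90 and 1.17, EGR1 and EGR2 lie below 0, and KLF2 is the only gene called lower.

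Of 26 listed transcription factors and kinases that act on early response promoters, 23 were tested. Of these 23, 1 was called, beside 8.73% of all tested genes called in either direction. None was called higher by edgeR, DESeq2 or limma on TPM, although 2 were higher and 6 were lower at an unadjusted p under 0.05, which 15.3% and 15.6% of all tested genes were. The median log2 fold change was -0.03, and it was 0.07 without DMSO replicate 3. RPS6KA2, which encodes a kinase downstream of ERK, was called lower, from 3.03 ± 0.461 to 1.54 ± 0.135 CPM (SD, n = 3 each), with a log2 fold change of -0.97 (edgeR adjusted p = 0.0168). This call was lost when any library other than DMSO replicate 3 was left out. ELK3, a partner of serum response factor and the most abundant of those not called, had 283 ± 65.8 CPM with DMSO and 208 ± 9.01 CPM with erianin (SD, n = 3 each), with a log2 fold change of -0.45 (edgeR adjusted p = 0.0922). MEF2C was called higher when DMSO replicate 3 was left out. MRTFA and MRTFB, broadly expressed partners of serum response factor, were listed at 0 in all 6 libraries, so a value of 0 in this table was not read as absence.

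Of 5 partner genes, the EGR corepressors NAB1 and NAB2 and the retinoid X receptors with which NR4A1 and NR4A2 pair, 4 were tested. None was called by edgeR, DESeq2 or limma on TPM, beside 8.73% of all tested genes called by edgeR. At an unadjusted p under 0.05, 1 was higher, as were 15.3% of all tested genes. NAB2, itself a known target of EGR1, had 166 ± 46.6 CPM with DMSO and 151 ± 4.21 CPM with erianin (SD, n = 3 each), with a log2 fold change of -0.14 (edgeR adjusted p = 0.669).

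ARC is known mainly from neurons, so markers of other cell types were read in the same libraries. Of the neuron markers, 11 had a row in the table and 5 of these averaged under 1 CPM, with NEFM and STMN2 listed at 0. Their summed level was 346 to 388 CPM with DMSO and 348 to 366 CPM with erianin. Most of it came from NEFH, DLG4 and RBFOX3. These averaged 153, 146 and 59.4 CPM with DMSO and 187, 123 and 38.8 CPM with erianin. Of 8 immune, endothelial and stromal markers, 6 averaged under 1 CPM. The summed level of the 8 was 35.5 to 39.3 CPM with DMSO and 31.9 to 33.0 CPM with erianin. COL1A1 made up most of it, averaging 34.7 CPM with DMSO and 27.8 CPM with erianin. The 4 epithelial markers, EPCAM and the keratins KRT8, KRT18 and KRT19, were all expressed. Of 8 markers of thyroid follicular cells, 5 averaged under 1 CPM, with TSHR and NKX2-1 listed at 0, while PAX8 averaged 676 CPM with DMSO and 428 CPM with erianin. The summed thyroid level was 646 to 743 CPM with DMSO and 422 to 437 CPM with erianin. The part of these markers in the results was not tested.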

How the data were processed

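Total RNA of CAL62 cells was sequenced by the authors on BGISEQ-500 in 6 libraries, 3 per group, while the labels name an Illumina library protocol. Raw counts of reads on each gene and a TPM table of the same libraries were deposited by the authors. The submitters' processing notes list fastp 0.23.2, STAR 2.7.10, featureCounts 2.0.1, StringTie 2.2.1 and the build GRCh38 (hg38). The annotation and the strand setting are not given in the sources used here, so overlapping genes may share reads. The deposited TPM columns sum to 73.5%, 72.6% and 59.1% of their nominal total in DMSO replicates 1, 2 and 3. In erianin replicates 1, 2 and 3 they sum to 77.2%, 75.1% and 78.3%. They were not rescaled.

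Of 65807 rows, 26480 carry no identifier, hold 0.00385% to 0.00515% of the counts and were left out. Of rows sharing an identifier, the one with most counts was used. Counts were tested with edgeR 4.0.16 (TMM, filterByExpr, glmQLFit, glmQLFTest) under R 4.3.3, with treatment as the only term. Genes called had a Benjamini-Hochberg adjusted p under 0.05 over all tested genes and a log2 fold change above 0.5 in size. Standard errors came from the quasi-likelihood F statistic. The steps were tested on simulated data, where edgeR recovered 199 of 200 changed genes among 12787, with 3 unchanged genes called. Every simulated library had the same coefficient of variation of 0.1, none stood apart, and all changes exceeded the fold threshold. The data had 0.139 and a library that stood apart, so the simulation checks the steps and does not measure recovery here.

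The genes described and all gene lists were chosen with earlier results of these data known. Every early response gene is named. Of each list, the 4 largest increases and 2 largest decreases among genes called with a mean of at least 1 CPM are named, with the most abundant gene not called.

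Alternatives were DESeq2 1.42.0, limma 3.58.1 on TPM values (log2 after adding 1 or 0.1, for genes with mean TPM of 1 or more or unfiltered), other scalings, count filters and fold thresholds, a replicate block, and each library left out. A loess correction for GC content within each library (span 0.5), alone or with DMSO replicate 3 left out, and CPM per kilobase of the longest transcript were added after seeing the data. Same-numbered libraries were not treated as pairs in the main fit. The correlations of their deviations from the group means were 0.00143, 0.0364 and -0.0284. These are too small to show whether such libraries shared a batch, so they do not settle the pairing. Intervals on reads cover counting error only. Figures were drawn with matplotlib 3.10.9.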

Additional observations from a re-analysis of the deposited data

How the results depend on the processing

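Over all alternative fits the log2 fold change of ARC lay between 4.38 and 4.83, that of NR4A1 between 0.76 and 1.09, that of NR4A2 between 0.79 and 1.15 and that of NR4A3 between 0.64 and 1.24. EGR1, EGR2, EGR3, IER2 and IER5 kept their direction and were called in none of these fits. EGR3 and NR4A3 were not tested in the TPM fits with a minimum mean of 1. EGR4 had a positive log2 fold change of 0.066 with the GC trend removed and DMSO replicate 3 left out, 0.0024 with at least 10 counts in every library, 0.19 in limma on log2(TPM + 0.1), 0.17 in limma on log2(TPM + 1) with or without the filter, and 0.047 with upper-quartile factors. With 1 library left out, EGR4 ranged from -0.088 without erianin replicate 1 to 0.078 without erianin replicate 3, with 0.047 without DMSO replicate 2. The median of all genes stood at 0.18, 0.20 and 0.12 in the 3 TPM fits. The TPM columns were used without rescaling. They summed to 59.1% to 73.5% of their nominal total with DMSO and to 75.1% to 78.3% with erianin. The cause of the shifts was not tested.

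Of the 9 early response genes other than ARC, 0 to 3 were called higher with 1 library left out, the 0 without erianin replicate 3, and 1 at an absolute log2 fold change over 1. With ARC, which was chosen for its increase, these counts were 1 to 4 and 2. Of all tested genes, 172 to 1485 were called higher with 1 library left out. The other immediate early genes called higher numbered 5 to 18 with 1 library left out and 4 at the threshold of 1. Those called lower numbered 0 to 1 with 1 library left out, 0 in each of the TPM fits and 0 at the threshold of 1. The 3 TPM fits called 88 to 110 of all genes lower, against 431 in edgeR. Upstream regulators called higher numbered 0 to 1 with 1 library left out. Upstream regulators called lower numbered 0 to 1 with 1 library left out, 2 with the GC trend removed (ELK3 and RPS6KA2), 0 in each of the TPM fits, 4 with no fold threshold and 0 at the threshold of 1. Gag-derived genes called higher numbered 0 to 2 with 1 library left out, 2 by DESeq2, 0 with the GC trend removed, 0 with the replicate block and 0 at the threshold of 1.

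With the replicate number as a block, 384 of all genes were called higher and 281 lower, against 688 and 431 without it. NR4A1, NR4A2 and NR4A3 were still called higher, with log2 fold changes of 0.91, 0.999 and 1.17 and edgeR adjusted p of 0.0273, 0.0418 and 0.0357. DMSO replicates 1 and 3 did not correlate best with the erianin library of their own number, and DMSO replicate 2 did, at 0.0364. All these correlations lay between -0.0591 and 0.0599. They are too small to show whether libraries of the same number shared a batch. EGR3 and NR4A3 had the fewest reads, 18 to 67 and 44 to 134 per library.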

Other observations

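ARC is 1 of the human genes that descend from retrotransposon Gag genes. Of 24 others listed, 23 had a row in the table, 13 were listed at 0 in all 6 libraries and 8 were tested. As with MRTFA and MRTFB, a value of 0 was not read as absence. Over all tested genes 5.37% were called higher. PEG10, which encodes a Gag-like protein that forms particles, was called higher, from 309 ± 72.3 to 465 ± 6.84 CPM (SD, n = 3 each), with a log2 fold change of 0.59 (edgeR adjusted p = 0.0398). This call was lost with the replicate block, with the GC trend removed and when any library other than DMSO replicate 3 was left out. PNMA1, the most abundant of those not called, had a log2 fold change of 0.14 (edgeR adjusted p = 0.374). None was called lower by edgeR, DESeq2 or limma on TPM or at an unadjusted p under 0.05. The median log2 fold change of the 8 was 0.21, against 0.00 over all tested genes. Over the listed genes tested with 1 library left out, the list median lay between 0.04, without DMSO replicate 3, and 0.48, without DMSO replicate 2.

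Likeness to ARC was measured as Pearson's r of log2 CPM over the 6 libraries, among 11553 genes averaging at least 1 CPM. The points share libraries and fall into the 2 treatment groups, so r mostly ranks genes by how cleanly they separate them, and no p is given. The most alike were ADM, which encodes the peptide adrenomedullin, at 0.9997, the MAP kinase phosphatase DUSP1 at 0.999, the Mediator subunit MED26 at 0.999, ABTB2 at 0.999 and a second MAP kinase phosphatase, DUSP8, at 0.998. ADM had 50.8 CPM with DMSO and 208 CPM with erianin, a log2 fold change of 2.03 with a standard error of 0.10. Of the early response genes, NR4A3 had 0.978, NR4A1 had 0.9749 and NR4A2 had 0.907. Their r ranked 172, 204 and 796 among the 11553 genes. IER5 had 0.775, IER2 had 0.702, EGR3 had 0.479, EGR4 had -0.00018, EGR1 had -0.753 and EGR2 had -0.862.

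PAX8, a transcription factor of thyroid follicular cells, was called lower in the same libraries, with a log2 fold change of -0.66 (edgeR adjusted p = 0.00404). Among neuron markers, SYP, a synaptic vesicle protein gene, was called higher with 2.18 on 0.746 CPM with DMSO and 3.32 CPM with erianin (edgeR adjusted p = 0.00602), and RBFOX3, a splicing factor of neurons, was called lower with -0.61 (edgeR adjusted p = 0.00402). Both were called under the same rule as the early response genes.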
